A study of Mus musculus with 4 samples.

Results

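The mitochondrial respiratory chain was examined in mouse lens epithelium with and without UVB irradiation through 91 genes of the 19938 that had a probe set of their own on the array. The nuclear members were the 89 genes with a symbol beginning with Ndufa, Ndufb, Ndufc, Ndufs, Ndufv, Uqcr, Cox4 to Cox8 or Atp5, together with Sdha, Sdhb, Sdhc and Sdhd, and each was read from the probe set with the highest mean over the 4 arrays among those that carried its symbol alone. The prefix mt- matched 0 symbols, because the array annotation lists genes of the mitochondrial genome under their RefSeq names, and the 2 genes on chromosome MT with a probe set of their own, COX2 and ND3, were therefore added as the mitochondrial members. Of the 89 nuclear members, 73 encoded subunits of complexes I to V, 7 were complex I assembly factors (Ndufaf1 to Ndufaf7), 7 were tissue isoforms of complex IV subunits (Cox4i2, Cox6a2, Cox6b2, Cox7a1, Cox7b2, Cox8b and Cox8c), and the last ones were Ndufa4l2, a paralogue of the subunit Ndufa4, and Cox7a2l, which takes part in joining complexes into supercomplexes. Cox7c, Ndufb4, Ndufb4b and Ndufs5-ps, and the mitochondrial ATP6 and ND6, were measured only by probe sets shared with another symbol and are named without values.

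The arrays held RNA of lens epithelial cells from male C57BL/6 mice aged 8 weeks. The right eye received UVB at 30 mJ/cm2, the left eye was covered with foil and served as the control, and the lens epithelium was collected 24 h later. There were 2 control and 2 UVB arrays, from 2 independent experiments that each used 3 mice, and no source used here says whether an array held 1 mouse or a pool. The lens was taken out from the posterior side of the eye and freed of other tissue, retina included. All 13 lens markers (among them Foxe3, Pax6 and Cryaa) lay above the median of the control arrays. All 15 measured photoreceptor markers and all 10 pigment epithelium markers were higher after UVB in both experiments, against 22.6% of all genes. In the bulk tissue, fewer cells of a type and less RNA per cell cannot be told apart.

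The respiratory chain passes electrons from NADH, through complex I, and from succinate, through complex II, to complex III and then by cytochrome c to complex IV, which reduces oxygen, while complex V uses the proton gradient to make ATP. Complexes I, III, IV and V are assembled from subunits encoded in the nucleus and subunits encoded in mitochondrial DNA, and complex II is wholly nuclear. In the lens the epithelium and the youngest fibre cells hold mitochondria, which are lost as fibre cells mature.

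The promoters of nuclear respiratory chain genes are known for binding sites of NRF1 and of the ETS family factor NRF2 (whose DNA-binding subunit is Gabpa), and the sequences of 3 members on which the results below turn are shown for that reason. Each is the 250 bases upstream of the annotated start in RefSeq (build GRCm38.p6), in the direction of the gene, with capitals marking 1 motif: the NRF1 core GCATGCG in Sdhb (chr4:140961021-140961270, plus strand), the ETS core CGGAAG read on the opposite strand in Sdhd (chr9:50603850-50604099, minus strand), and the E-box CAGCTG in Cox8b (chr7:140900447-140900696, minus strand).
Sdhb: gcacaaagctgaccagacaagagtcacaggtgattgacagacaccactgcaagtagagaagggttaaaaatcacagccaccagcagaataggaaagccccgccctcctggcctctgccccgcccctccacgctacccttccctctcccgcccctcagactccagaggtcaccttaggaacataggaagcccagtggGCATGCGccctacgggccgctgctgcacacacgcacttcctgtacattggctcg
Sdhd: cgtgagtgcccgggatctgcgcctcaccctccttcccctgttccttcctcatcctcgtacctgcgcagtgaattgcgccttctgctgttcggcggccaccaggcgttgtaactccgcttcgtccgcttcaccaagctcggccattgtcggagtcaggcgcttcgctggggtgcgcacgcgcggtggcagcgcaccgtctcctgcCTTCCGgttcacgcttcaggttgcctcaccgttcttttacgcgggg
Cox8b: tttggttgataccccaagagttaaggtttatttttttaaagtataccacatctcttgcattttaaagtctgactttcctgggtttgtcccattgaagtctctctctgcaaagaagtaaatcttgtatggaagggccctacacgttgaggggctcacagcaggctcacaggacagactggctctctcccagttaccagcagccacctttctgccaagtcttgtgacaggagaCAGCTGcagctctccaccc
Of the 73 nuclear subunit genes, 62 were matched to 67 windows of 300 bases (250 before to 50 after the start). The NRF1 core was found on either strand in 11 of the 67 windows (16.4%), against 3.58% of all 32851 promoter windows. The ETS core was found in 29 (43.3%), against 16.9% of all windows, and the E-box in 5 (7.46%), against 16.3%. The median GC content was 58.7% in the subunit windows and 52.7% in all windows. In Sdhb the NRF1 core began 54 bases before the start, in Sdhd the ETS core began 46 bases before it, and in Cox8b the E-box began 19 bases before it. A match is a string of letters in the window and not a measured binding site.

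The nuclear subunit genes were highly expressed and moved little. All 73 lay above the array median on all 4 arrays, and 66 lay above the 75th percentile on all 4. The difference between UVB and control, on the log2 scale and averaged over both experiments, had a median of -0.05 over the 73 subunits and ranged from -0.305 to 0.07. It was within 0.1 of 0 for 56 of them and larger than 0.25 for 1. Over all genes the median was -0.025, and 5.59% of genes moved by more than 0.25.

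The direction was downward in both experiments for 42 of the 73 nuclear subunits, and for 48 of the 91 members, against 39.5% of all genes. It was upward in both for 11 subunits and 17 members, against 22.6% of all genes. The median difference of the nuclear subunits was -0.02 in experiment 1, as over all genes (-0.02), and -0.07 in experiment 2, where all genes had -0.03. For 51 of the 73 subunits the difference was lower in experiment 2 than in experiment 1, against 49.3% of all genes. The subunit median therefore lay below that of all genes in experiment 2 and level with it in experiment 1.

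**Figure D1:**
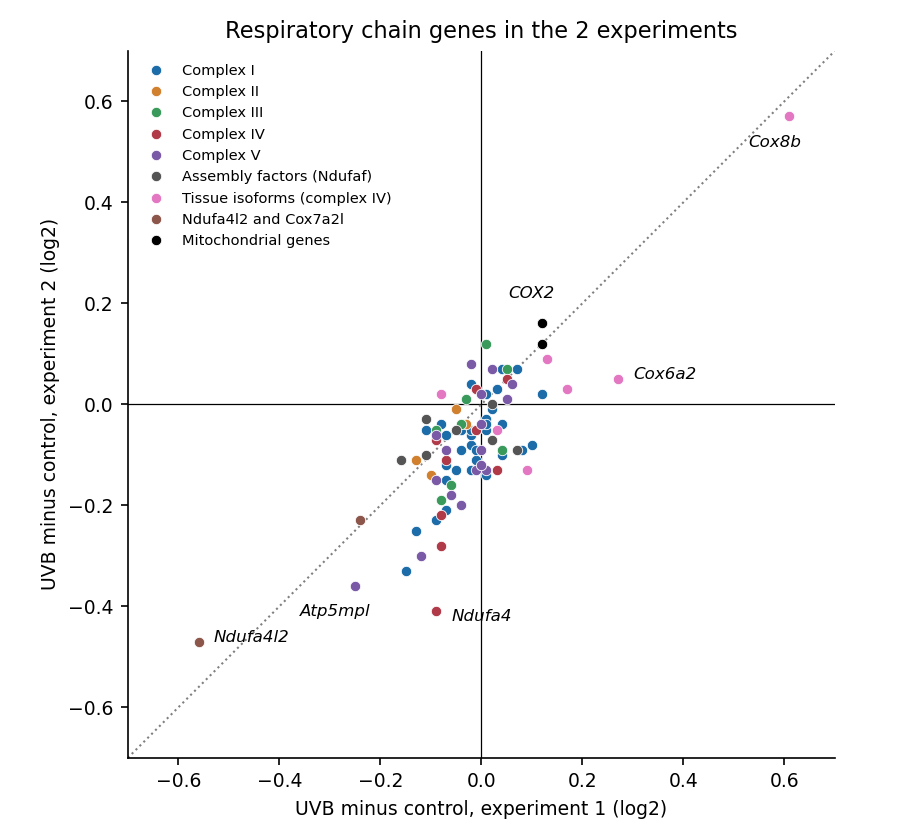
UVB minus control (log2) of the 91 members in experiment 1 (horizontal axis) and experiment 2 (vertical axis), coloured by complex or role; the dotted line marks equal differences. Most points lie within 0.2 of 0, more of them below the dotted line than above it, and Cox8b and Ndufa4l2 lie far from the rest in both experiments.

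By limma without a replicate block, with Benjamini-Hochberg adjustment over all probe sets, 5 members were higher after UVB at an adjusted p below 0.05, of which 1 was a nuclear subunit, against 6.19% of all genes. In the lower direction 10 members passed, of which 6 were nuclear subunits, against 12.0% of all genes. Neither share of the members exceeded that of all genes. With the experiment as a replicate block 0 members passed, against 0.0% of all genes, and the lowest adjusted p of any gene was 0.357. At an unadjusted p below 0.05 in the blocked limma fit, 3 members were higher (5.14% of all genes) and 5 were lower (8.03% of all genes). At the study's threshold of 1.8-fold with an unadjusted p below 0.01, 0 members passed, against 0.125% of all genes. In the deposited values the sum of control and UVB was equal in both experiments for every probe set, within 0.02, so any difference in mean level between the experiments had been removed before deposit and the fit without the block understates the spread. With equal sums, a gene's control and UVB arrays do not overlap, within rounding, whenever its difference has 1 sign in both experiments. Over all genes this was so downward for 39.5% and upward for 22.6%, so a lack of overlap adds nothing to the shared sign. Calls below are those without the block, and each of them was lost with it.

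The 2 measured mitochondrial genes moved opposite to the nuclear median, and other genes of the mitochondrial genome have no values here. The median of the 2 on the control arrays was 12.595 and 12.585, against 10.70 and 10.73 for the nuclear subunits. Most nuclear subunits of a level like that of the 2 genes (log2 means of 12.305 to 13.105) also had positive mean differences. These were Uqcrb (0.065), Cox7b (0.05), Atp5b (0.045), Atp5md (0.03), Atp5d (0.01) and Cox6c (0.01). Atp5g2 (-0.08) and Ndufc2 (-0.03) had negative ones. None of them rose by as much as COX2 or ND3. COX2, the catalytic core subunit of complex IV that receives electrons from cytochrome c, had log2 signals of 12.89 and 12.87 on the control arrays and 13.01 and 13.03 on the UVB arrays (probe set 10353630). ND3, a membrane subunit of complex I, had 12.30 and 12.30 on the control arrays and 12.42 and 12.42 on the UVB arrays (probe set 10598055). Both UVB arrays were above both control arrays for each gene.

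COX2 was 0.14 higher on the log2 scale (1.10-fold, SE 0.014, limma adjusted p = 0.030 without the block and 0.357 with it, n = 2 arrays per group). ND3 was 0.12 higher (1.09-fold, SE 0.0079, limma adjusted p = 0.022 without the block and 0.357 with it). A second probe set of COX2 gave the same difference, 0.14, and a second one of ND3 gave 0.135. The median of the 2 genes was 0.12 in experiment 1 and 0.14 in experiment 2, so the median of the nuclear subunits lay 0.14 below it in experiment 1 and 0.21 below it in experiment 2. Nuclear copies of mitochondrial sequence can share probes with these genes, and the part of such copies in the signal was not tested. The summed linear signal of the 15 photoreceptor markers, a cell type rich in mitochondria, was 9715 and 7975 on the control arrays and 15180 and 18579 on the UVB arrays, and 11 of the 15 lay above the median in controls. Whether this rise came from photoreceptor cells was not tested, nor was the part of such cells in the mitochondrial gene signals.

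**Figure D2:**
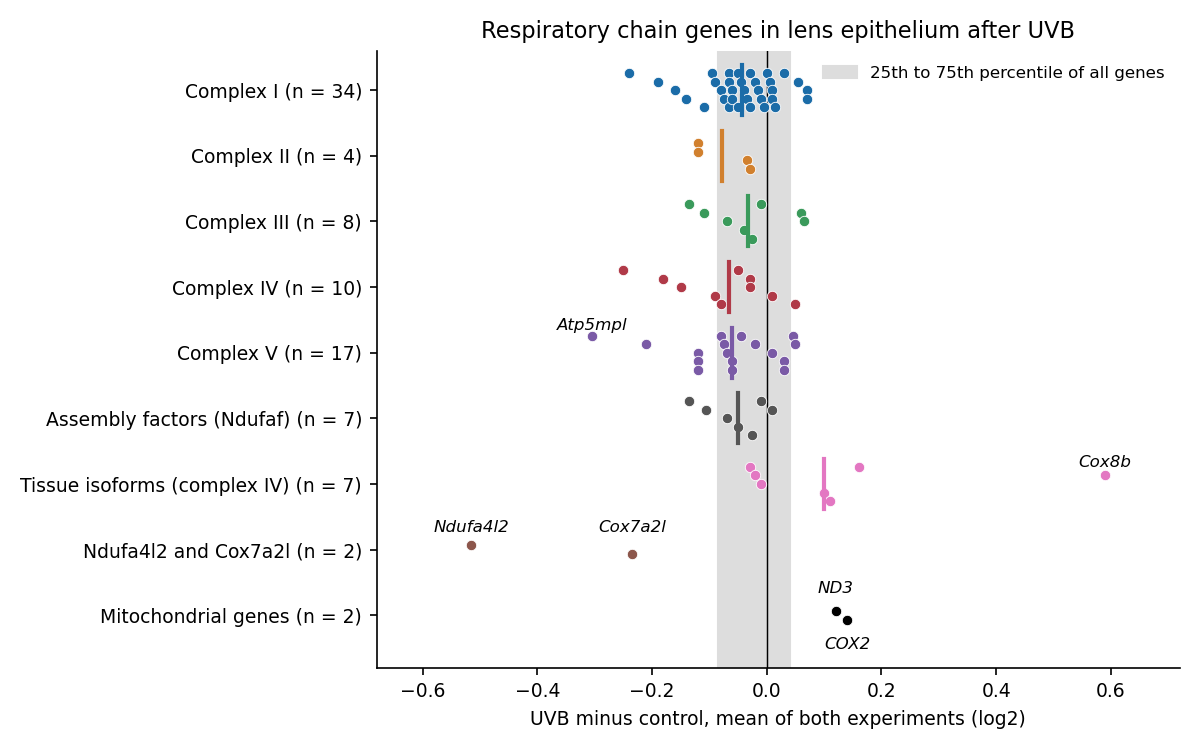
UVB minus control (log2, mean of both experiments) of each member, 1 point per gene, by complex and role, with a vertical bar at the median of each class of more than 2 genes and the grey band from the 25th to the 75th percentile of all genes. The medians of complexes I to V lie between -0.08 and -0.03 inside the grey band, which runs from -0.085 to 0.04. Ndufa4l2, Cox8b, COX2 and ND3 lie outside it. So do many nuclear subunits, whose own 25th percentile is -0.09, among them Atp5mpl (-0.305) and Ndufa4 (-0.25).

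Complex I (34 nuclear subunits) had a median difference of -0.015 in experiment 1 and -0.06 in experiment 2. Of its subunits, 19 were lower in both experiments and 5 were higher in both. Over all genes 39.5% were lower and 22.6% higher in both, and these shares serve for the other complexes too. Ndufa10, an accessory subunit, was called lower, with 10.57 and 10.56 on the control arrays and 10.50 on both UVB arrays (fell by 0.065, limma adjusted p = 0.043). Ndufc1, another accessory subunit, was called higher by 0.07, with 11.25 on both control and 11.32 on both UVB arrays (limma adjusted p = 0.033), but its second probe set differed by 0.01. For both genes the control and UVB arrays did not overlap.

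The largest differences in complex I did not pass the limma test. Ndufa1, an accessory subunit needed for assembly of the membrane arm, had 9.71 and 9.80 on the control arrays and 9.56 and 9.47 on the UVB arrays, a difference of -0.15 in experiment 1 and -0.33 in experiment 2 (limma adjusted p = 0.084). Ndufb6 differed by -0.13 and -0.25 in the 2 experiments (limma adjusted p = 0.068) and Ndufab1, the mitochondrial acyl carrier protein, by -0.09 and -0.23 (limma adjusted p = 0.10). All 3 genes were picked for 1 sign in both experiments, so their arrays could not overlap. Experiment 2 gave the larger difference for each. On the other side, Ndufb10 differed by 0.12 and 0.02 and Ndufb2 by 0.04 and 0.07, and neither passed.

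Complex II, succinate dehydrogenase, also an enzyme of the TCA cycle, was the complex in which every nuclear subunit was lower in both experiments. These were 4 of 4, against 39.5% of all genes, and 2 of the 4 were called lower (12.0% of all genes). Sdhb, the iron-sulfur subunit, had log2 signals of 10.22 and 10.24 on the control arrays and 10.12 and 10.10 on the UVB arrays. Sdhd, a membrane anchor subunit, had 9.76 and 9.75 on the control arrays and 9.63 and 9.64 on the UVB arrays. Neither gene's control and UVB arrays overlapped.

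The mean difference was the same for Sdhb and Sdhd, -0.12 (1.09-fold lower), with a limma adjusted p of 0.035 for Sdhb and 0.025 for Sdhd, and 0.357 for each with the block. Sdha, the flavoprotein that oxidises succinate, had 10.88 on both control arrays and 10.85 and 10.84 on the UVB arrays, which did not pass (limma adjusted p = 0.10). The median of the complex was -0.075 in each experiment, but single subunits differed between the experiments. Sdhb had -0.10 in experiment 1 and -0.14 in experiment 2, and Sdhc, a second membrane anchor, had -0.05 and -0.01. Sdhc did not pass (limma adjusted p = 0.24). The mean differences of Sdha (-0.035) and Sdhc (-0.03) lay near the median of all genes (-0.025).

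Complex III (8 nuclear subunits) had a median difference of -0.035 in experiment 1 and -0.045 in experiment 2, and 0 of its subunits passed the limma test after adjustment. At an unadjusted p below 0.05 without the block, 1 was higher and 4 were lower. In that fit 7721 of all 19938 genes passed this cut in either direction. Uqcr10 differed by -0.08 and -0.19 in the 2 experiments (limma adjusted p = 0.097), Uqcrq by -0.06 and -0.16 (limma adjusted p = 0.11), and Uqcrfs1, the Rieske iron-sulfur protein, by -0.09 and -0.05 (limma adjusted p = 0.070). Uqcrb differed by 0.01 and 0.12, and Uqcr11 by 0.05 and 0.07. A second probe set of Uqcr11 rose by 0.08 and passed (limma adjusted p = 0.036). The subunits thus lay on both sides of 0, with 4 lower and 2 higher in both experiments.

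Complex IV (10 nuclear subunits outside the tissue isoforms) had a median difference of -0.04 in experiment 1 and -0.09 in experiment 2, with 7 subunits lower and 1 higher in both. Cox5b, a subunit of the matrix side, was called lower, with 11.80 and 11.79 on the control arrays and 11.71 and 11.72 on the UVB arrays (fell by 0.08, limma adjusted p = 0.036). A second probe set of Cox5b fell by 0.04 and did not pass (limma adjusted p = 0.16). Ndufa4, first described as part of complex I and now counted to complex IV, had the largest mean difference of the complex, -0.25. Its log2 signals were 9.80 and 9.96 on the control arrays and 9.71 and 9.55 on the UVB arrays. The arrays did not overlap, but the difference was -0.09 in experiment 1 and -0.41 in experiment 2, and it did not pass (limma adjusted p = 0.18). Cox5a differed by -0.08 and -0.28 (limma adjusted p = 0.15) and Cox4i1 by -0.08 and -0.22 (limma adjusted p = 0.12), again with the larger difference in experiment 2.

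Complex V (17 nuclear subunits) had a median difference of -0.01 in experiment 1 and -0.09 in experiment 2, with 8 subunits lower and 3 higher in both. Atp5mpl, a small membrane subunit, had log2 signals of 9.68 and 9.73 on the control arrays and 9.43 and 9.37 on the UVB arrays, with no overlap (probe set 10402752). It fell by 0.305 (1.24-fold lower, SE 0.034, limma adjusted p = 0.032 without the block and 0.357 with it), the largest difference among the 73 nuclear subunits. Atp5g2, which encodes the proton-conducting ring subunit c, was called lower by a smaller step, from 12.34 and 12.35 to 12.27 and 12.26 (fell by 0.08, limma adjusted p = 0.036). Its other probe sets each fell by 0.085, 1 passing (limma adjusted p = 0.031) and 1 not (limma adjusted p = 0.070).

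Atp5g1, another gene for subunit c, differed by 0.06 and 0.04, and did not pass (limma adjusted p = 0.068). Atp5l, subunit g of the membrane part, differed by -0.12 and -0.30 (limma adjusted p = 0.10), and its 6 probe sets gave mean differences between -0.225 and -0.13. Atp5c1, the rotor subunit gamma, differed by -0.06 and -0.18, Atp5b, the catalytic subunit beta, by 0.02 and 0.07, and Atp5pb, of the peripheral stalk, by 0.05 and 0.01, and none of the 3 passed.

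Outside the subunits, Ndufa4l2 and Cox7a2l were called lower. Ndufa4l2, the Ndufa4 paralogue that is induced by hypoxia through HIF-1 and lowers complex I activity, had log2 signals of 8.71 and 8.67 on the control arrays and 8.15 and 8.20 on the UVB arrays (probe set 10366951). Cox7a2l had 8.81 on both control arrays and 8.57 and 8.58 on the UVB arrays (probe set 10399677). For each gene both UVB arrays were below both control arrays, which the equal sums force once both experiments share a sign.

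Ndufa4l2 fell by 0.515 (1.43-fold lower, SE 0.028, limma adjusted p = 0.021 without the block and 0.357 with it), by 0.56 in experiment 1 and by 0.47 in experiment 2. Its interval in the blocked fit, 95% from -0.68 to -0.35, excluded 0 before adjustment (limma unadjusted p = 0.0045). Cox7a2l fell by 0.235 (1.18-fold lower, SE 0.0089, limma adjusted p = 0.021 without the block and 0.357 with it). A second probe set of Cox7a2l fell by 0.18 and did not pass (limma adjusted p = 0.056). The partner Ndufa4 had a mean difference of -0.25 that did not pass, as given above. The difference between the paralogues was not tested.

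Other genes of the hypoxia response, induced by it or carrying it, were examined beside Ndufa4l2. Of the 15 listed, none a member of the chain, 12 were lower in both experiments (39.5% of all genes) and 1 was higher in both (22.6% of all genes), while 3 were called lower (12.0% of all genes) and 1 higher (6.19% of all genes). Pdk1, the kinase that inhibits pyruvate dehydrogenase, fell by 0.21 (limma adjusted p = 0.021) and Bnip3, a mitophagy receptor, fell by 0.15 (limma adjusted p = 0.039). Epas1, which encodes HIF-2 alpha, rose by 0.34 (limma adjusted p = 0.024). The median of the list was -0.07 in experiment 1 and -0.16 in experiment 2. For Pdk1, Bnip3 and Epas1 the adjusted p was 0.357 with the block.

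**Figure D3:**
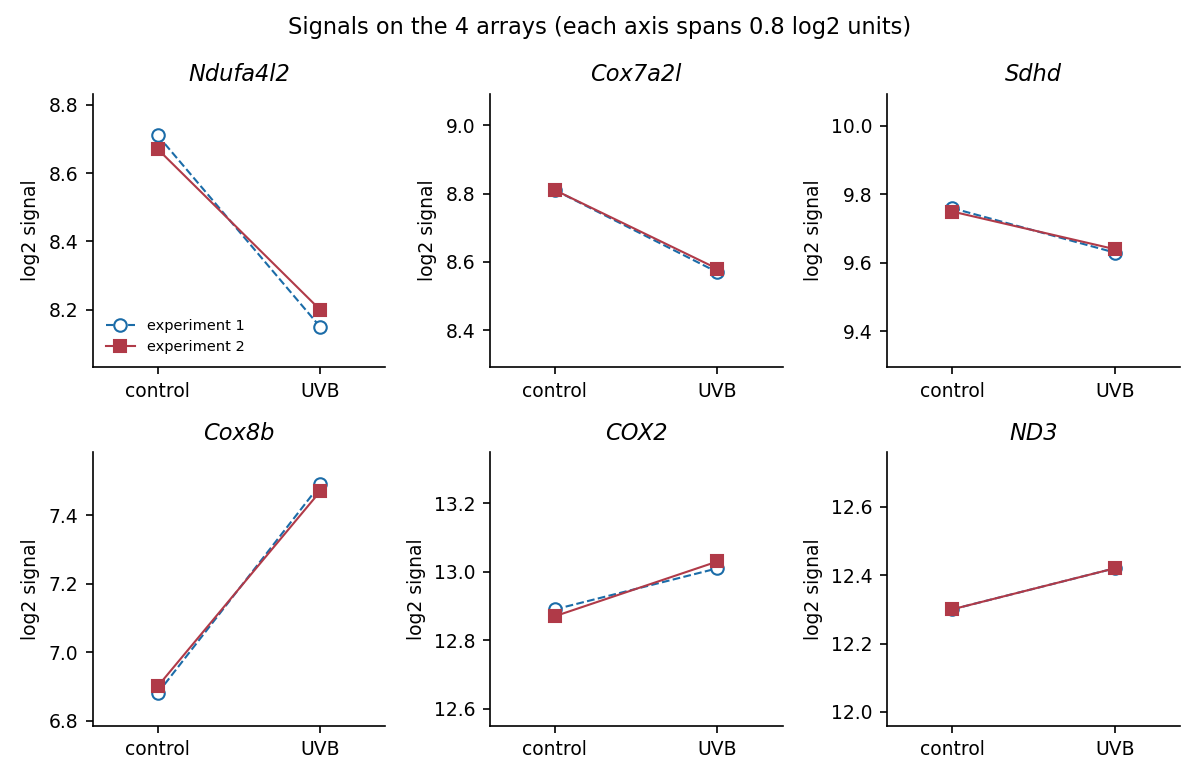
Log2 signals of 6 members on the 4 arrays, control and UVB of the same experiment joined by a line, each vertical axis spanning 0.8 log2 units. In each panel both UVB arrays lie on the same side of both control arrays, lower for Ndufa4l2, Cox7a2l and Sdhd and higher for Cox8b, COX2 and ND3.

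Of the 7 tissue isoforms of complex IV, 2 were called higher, against 6.19% of all genes, and 3 had a mean above the array median. Cox8b, the isoform of heart and skeletal muscle and brown fat, had log2 signals of 6.88 and 6.90 on the control arrays, below the array medians of 7.19 and 7.20, and 7.49 and 7.47 on the UVB arrays, above the array medians of 7.22 and 7.21 (probe set 10569008). Both UVB arrays were above both control arrays. The rise was 0.59 (1.51-fold, SE 0.014, limma adjusted p = 0.021 without the block and 0.357 with it), by 0.61 in experiment 1 and 0.57 in experiment 2, and it was the largest difference among the 91 members. In the blocked fit the 95% interval ran from 0.47 to 0.71 (limma unadjusted p = 0.0018).

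Cox4i2, the lung isoform of subunit 4, rose from 7.86 and 7.88 to 7.99 and 7.97, again with no overlap (0.11, limma adjusted p = 0.039 without the block and 0.357 with it), while its ubiquitous partner Cox4i1 had a mean difference of -0.15. Cox6a2, of heart and skeletal muscle, differed by 0.27 in experiment 1 and 0.05 in experiment 2, and Cox8c, of testis, by 0.17 and 0.03, and neither passed. Cox7a1 (0.09 and -0.13), the muscle isoform of subunit 7a, and Cox6b2 (0.03 and -0.05), of testis, had opposite signs in the 2 experiments. The ubiquitous partners Cox6a1, Cox6b1, Cox7a2 and Cox8a had mean differences of -0.05, -0.03, -0.09 and -0.03, and none passed. The difference between an isoform and its partner was not tested.

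Markers of other cell types were examined beside these isoforms. Of 12 muscle markers, 4 of them above the median in controls, 8 were higher in both experiments (22.6% of all genes). The other 4, among them Ckmt2 (mean difference -0.075) and Myh1 (-0.015), had opposite signs in the 2 experiments. Called higher were 2 (6.19% of all genes), Ckm, the muscle creatine kinase (0.21, limma adjusted p = 0.028), and Actn3, of fast muscle fibres (0.125, limma adjusted p = 0.043). The 12 muscle markers had a summed linear signal of 1725 and 1870 on the control arrays and 2154 and 1977 on the UVB arrays. Their median difference was 0.265 in experiment 1 and 0.04 in experiment 2. The 10 pigment epithelium markers, 7 above the median in controls, had summed signals of 2326 and 2424 in controls and 5988 and 5693 after UVB. The median of the photoreceptor markers was 0.67 in experiment 1 and 1.18 in experiment 2. The paper's authors believe that Otx2 overexpression raised the retina-related genes. Whether the higher markers came from other cells or from lens cells was not tested, nor was the part of such cells in the isoform signals.

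The assembly factors had a median difference of -0.05, as the nuclear subunits did. Of the 7 Ndufaf genes 4 were lower in both experiments (39.5% of all genes) and 2 were called lower (12.0% of all genes). Ndufaf1, a factor of the membrane arm, went from 9.15 and 9.12 to 8.99 and 9.01 (fell by 0.135, limma adjusted p = 0.038). Ndufaf7, a methyltransferase that modifies a core subunit, went from 7.55 on both control arrays to 7.44 and 7.45 (fell by 0.105, limma adjusted p = 0.026). Neither gene's arrays overlapped. In a wider list of assembly factors of complexes I to V, which includes these 7, 41 genes were measured. Of the 41, 2 were called higher (6.19% of all genes) and 7 lower (12.0% of all genes). Among the latter were Cox14 (fell by 0.22, limma adjusted p = 0.021), Cox19 (fell by 0.15, limma adjusted p = 0.021) and Surf1 (fell by 0.12, limma adjusted p = 0.025) of complex IV assembly. Named after their values were seen, Sdhaf4, of complex II assembly, had the largest fall of the list, 0.25 (limma adjusted p = 0.030), and the 2 called higher were Cox20, of complex IV assembly (0.07, limma adjusted p = 0.033), and Ecsit, of complex I assembly (0.075, limma adjusted p = 0.035). The median of this list was -0.03 in experiment 1 and -0.05 in experiment 2.

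Of 23 measured genes that maintain and express mitochondrial DNA, 4 were called lower (12.0% of all genes). In both experiments 3 were higher without passing (22.6% of all genes) and 11 were lower (39.5% of all genes). The medians were -0.06 in experiment 1 and -0.04 in experiment 2. The median mean difference was -0.02, against -0.025 for all genes. The 3 higher in both, named after their values were seen, were Lrpprc (0.125), Polg2 (0.085) and Fastk (0.07). Tfam, the packaging and transcription factor of mitochondrial DNA, fell by 0.10, Prorp, which processes mitochondrial transfer RNA, fell by 0.10 (limma adjusted p = 0.029 for each), and Fastkd2, an RNA-binding protein of mitochondria, fell by 0.21 (limma adjusted p = 0.028). Of 13 regulators of mitochondrial biogenesis, 10 were lower and 2 higher in both experiments, and 6 were called lower (12.0% of all genes) and 1 higher (6.19% of all genes). The higher one was Ppargc1a, the coactivator PGC-1 alpha, which went from 8.41 and 8.40 to 8.69 and 8.70 (0.29, limma adjusted p = 0.021). Esrra, the nuclear receptor that PGC-1 alpha acts with, fell by 0.195 (limma adjusted p = 0.021), and Pprc1, a related coactivator, fell by 0.11 (limma adjusted p = 0.026). Named for the promoter motifs above and not by the smallest p, Gabpa fell by 0.14 (limma adjusted p = 0.030). Nrf1 had a mean difference of -0.045 and did not pass (limma adjusted p = 0.068).

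Of 17 TCA cycle genes, 12 were lower in both experiments (39.5% of all genes) and 0 were higher in both (22.6% of all genes). Called lower were 4 (12.0% of all genes), among them Idh3a (fell by 0.105, limma adjusted p = 0.026), Suclg2 (fell by 0.085, limma adjusted p = 0.031) and Pdha1 (fell by 0.065, limma adjusted p = 0.043). A list of 20 electron carrier genes held those of coenzyme Q and cytochrome c, and Etfa, Etfb, Etfdh, Gpd2 and Dhodh. Of the 20, 3 were called lower (12.0% of all genes). They were Cyct, the testis cytochrome c, Coq9 and Dhodh, which reduces coenzyme Q in pyrimidine synthesis. Cyct had low log2 signals, 4.07 and 4.11 on the control arrays and 3.93 and 3.89 on the UVB arrays. Cycs, the somatic cytochrome c, had differences of 0.09 and 0.19 in the 2 experiments, and Cyc1, the cytochrome of complex III, had a mean difference of 0.055; neither passed, and both are named after their values were seen. Of 9 uncoupling proteins and carriers, 2 were called lower (12.0% of all genes). They were Slc25a4, the ADP/ATP carrier of muscle and heart, by 0.07, and Vdac2, a channel of the outer membrane, by 0.105. With the block no call of these lists held.

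**Figure D4:**
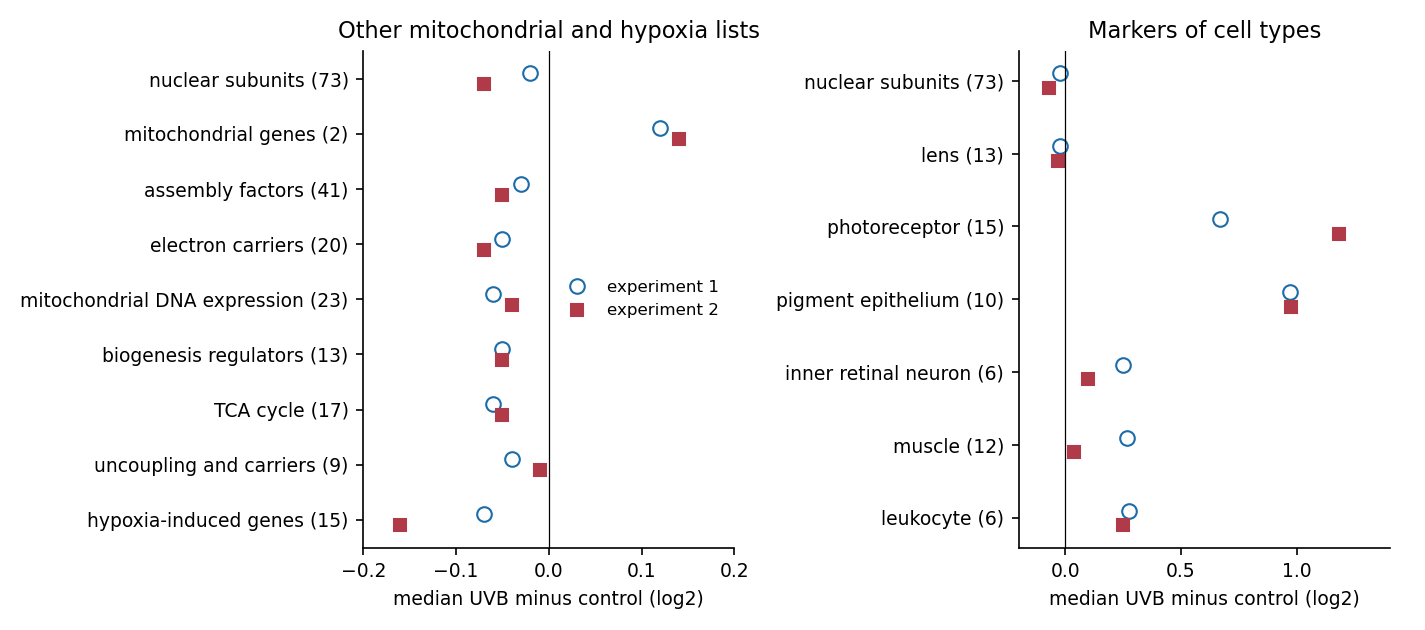
Median UVB minus control (log2) in experiment 1 (open circles) and experiment 2 (filled squares) of the nuclear subunits, the mitochondrial genes, other mitochondrial and hypoxia lists (left) and markers of cell types (right, on a wider axis), with the number of genes in brackets. The mitochondrial genes lie to the right of 0 while every other list on the left lies to its left, and photoreceptor and pigment epithelium markers lie furthest right.

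The promoter motifs shown above did not separate the subunits by much. The 11 nuclear subunit genes with an NRF1 core had a median difference of -0.08 (range -0.21 to 0.06) and the 51 matched genes without one had -0.04 (range -0.25 to 0.07). The 28 genes with an ETS core had a median of -0.06 (range -0.21 to 0.06) and the 34 without one had -0.04 (range -0.25 to 0.07). The ranges overlapped almost wholly, and the differences between them were not tested. Sdhb, with both cores in its window, and Sdhd, with the ETS core, both had a difference of -0.12.

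Several probe sets were present for 19 members, which made 118 member probe sets in all. Second probe sets of Cox7b (0.065, limma adjusted p = 0.043) and Ndufs3 (-0.10, limma adjusted p = 0.044) passed where the main ones did not. The mean differences of a gene's probe sets were 0.02 apart in the median and at most 0.095 apart, and they had opposite signs for 3 genes, Atp5pb, Cox6c and Ndufa11, whose directions are therefore not settled.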

How the data were processed

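RNA from lens epithelium was hybridised to 4 Affymetrix arrays, 2 control and 2 UVB. The methods name a human gene array, but the probe sets carry mouse symbols. The deposited values are log2 signals that the authors made with Affymetrix Expression Console (version and normalization not given in the sources used here), with 2 decimals and 28944 probe sets per array, of which 21789 have 1 symbol, 1621 several and 5534 none. Arrays have no read depth, and their number limits the precision. The values were used as deposited.

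The difference between UVB and control was fitted for each probe set with limma 3.58.1 under R 4.3.3 (lmFit and eBayes, two-sided, Benjamini-Hochberg over all probe sets, 2 residual degrees of freedom). Replicate numbers are the experiments, whose eyes came from the same mice, so they pair the arrays, and a fit with the experiment as a replicate block (1 residual degree of freedom) was run beside it. Same-numbered arrays deviated from their group means with a correlation of -0.998, which the equal sums of control and UVB in the 2 experiments force. With 2 arrays against 2, an exact permutation test cannot give a p below 0.333. Whether the samples were separate animals is not given, so p-values measure only the spread between these arrays as deposited. Any difference in mean level between the experiments had been removed from it. What remains without the block is how UVB minus control differed between the experiments.

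Members and lists were chosen with earlier results of these data known. Named members were the mitochondrial genes, up to 3 per direction and complex with the largest mean difference of 1 sign in both experiments, those past an adjusted p of 0.05 (up to 10 per direction) and the tissue isoforms with their partners; other lists give up to 3 genes with the smallest p. Further members were named for a level like that of COX2 and ND3, to complete complex II, or for their other probe sets. Lists are described by counts and medians with no test. Scripts were tested on simulated data. Promoters came from RefSeq (GRCm38.p6).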

Additional observations from a re-analysis of the deposited data

How the results depend on the processing

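The number of members called higher (5) and lower (10) depended on the fit. With the replicate block, which pairs control and UVB of an experiment, both counts were 0, with 3 higher and 5 lower at an unadjusted p below 0.05. They were also 0 and 0 by the t-test, which called 0 of all genes in either direction. At the study's threshold of 1.8-fold they were 0 and 0 too, against 0.125% of all genes. At 1.2-fold with an unadjusted p below 0.05 they were 1 and 2, and the share of all genes at that cut is not given here. Leaving out 1 array at a time gave 0 to 0 for each count. Centring the arrays on their median gave 22 lower, quantile normalization gave 6 lower, an intensity trend in the prior gave 8 higher, a robust prior gave 3 higher, and probe sets above the median level gave 8 higher and 16 lower. Over all genes the split of higher to lower calls was 1235 to 2393, and 1147 to 3629 after centring. It was 1528 to 1619 at equal 75th percentiles and 1358 to 1855 after quantile normalization. An intensity trend gave 1324 to 2611 and a robust prior 972 to 1685. Above the median level, 817 were called higher and 1886 lower, of 10769 genes. The median of the nuclear subunits stayed between -0.07 and -0.03, and that of the mitochondrial genes was 0.11 after centring and 0.15 at equal 75th percentiles, against 0.13. The nuclear median lay 0.18 below the mitochondrial one, with a range of 0.155 to 0.2 over all alternatives run. Cox6b2 turned to 0.01 at equal 75th percentiles. Leaving out 1 array at a time moved Cox6b2 between -0.03 and 0.01 and Cox7a1 between -0.075 and 0.035. The cause of these changes was not tested. With 2 arrays per group, differences near 0.1 rest on hundredths of a log2 unit, the last decimal deposited.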
